A study of Mus musculus with 16 samples.

Results

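A short list of genes by which macrophages are read in whole-tissue RNA was followed across diabetic and non-diabetic kidneys: Csf1r, Adgre1, Cd68, C1qa, C1qb, Itgam, Mrc1, Lyz2 and Ccr2. The members were the 9 rows of the deposited gene count matrix that carry these symbols, out of 57186 rows. Each of the 9 had at least 100 counts over all libraries and was among the 25408 such genes tested. The libraries were whole kidneys of 16 male mice, 4 in each labelled group. All 16 mice, controls included, were Elmo1H/H on a C57BL/6J background, an allele that raises expression of the engulfment adaptor Elmo1. Non-diabetic mice were Ins2+/+ and diabetic mice carried Ins2Akita/+, a mutant insulin allele that destroys the insulin-secreting beta cells. The groups were non-diabetic untreated (ND_C), non-diabetic given vitamin B12 (ND_B12), diabetic untreated (D_C) and diabetic given B12 (D_B12). B12 was added to the drinking water at 10 mg/kg per day from 8 weeks of age, for 16 weeks by the labels and for 8 weeks by the methods, and the kidneys were collected at 16 weeks of age.

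Macrophages of the kidney lie between the tubules and around the glomeruli, where they engulf debris and immune complexes and signal to other immune cells. Some settle before birth and renew themselves, and others arise from blood monocytes that enter the tissue. Growth and survival of the lineage depend on the receptor encoded by Csf1r, entry of monocytes depends largely on the chemokine receptor Ccr2, and the complement subunits C1qa and C1qb are made mainly by tissue macrophages. In a bulk kidney, fewer cells of a type and less RNA per cell cannot be told apart.

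The groups below are those of the labels, and the group means tabulated with the paper matched other sets of libraries. For 136 genes, every one of the 1820 possible sets of 4 libraries was compared with those means. The set that matched the tabulated ND_C held ND_C 1, ND_C 2, ND_C 4 and ND_B12 1, and the set for ND_B12 held ND_C 3, ND_B12 2, ND_B12 3 and D_C 1. The tabulated D_C was matched by all libraries with the label D_B12, and the tabulated D_B12 by ND_B12 4 with D_C 2, D_C 3 and D_C 4. In all, 5 libraries stood in the same group in both sources and 11 in another. Only D_C 1 and ND_B12 4 change diabetes status between the sources, so member values and list counts for diabetes are also given without these 2 libraries. Every direction given for B12 is that of the labels. So is the treatment in the comparisons of diabetes within a treatment and in the interaction. The libraries labelled D_B12 are the untreated diabetic set in the tabulated means, and D_C 2, D_C 3 and D_C 4 stand there under B12. Total counts ran from 65271308 to 91771136 per library. The dates in the library names, as days after the earliest, covered 0 to 14 for ND_C, days 14 to 21 for ND_B12, days 21 to 58 for D_C and days 63 to 111 for D_B12, so date and diabetes cannot be told apart. The dates of D_C and D_B12 did not overlap and those of ND_C and ND_B12 met only at day 14, so date and B12 cannot be told apart within a genotype either.

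The promoters of 4 members are shown first, from GRCm39, because C1qa and Ccr2 passed the test for diabetes, C1qb shares the complex with C1qa, and Lyz2 separated the B12 libraries from the untreated ones. Each runs from 250 bases before to 50 bases after the start of the transcript that held most of the gene's counts, and is written 5′ to 3′ on the gene's own strand. Capitals mark GAGGAA or its reverse complement TTCCTC, the core letters of a site for PU.1, the transcription factor that defines the myeloid lineage. C1qa lies at chr4:136623223-136626161 on the minus strand with its promoter at chr4:136626112-136626411, and C1qb beside it at chr4:136606009-136613511, also minus, with its promoter at chr4:136613462-136613761. Ccr2 lies at chr9:123901982-123913594 on the plus strand with its promoter at chr9:123901945-123902244, and Lyz2 at chr10:117111557-117118346 on the minus strand with its promoter at chr10:117118177-117118476.
C1qa promoter: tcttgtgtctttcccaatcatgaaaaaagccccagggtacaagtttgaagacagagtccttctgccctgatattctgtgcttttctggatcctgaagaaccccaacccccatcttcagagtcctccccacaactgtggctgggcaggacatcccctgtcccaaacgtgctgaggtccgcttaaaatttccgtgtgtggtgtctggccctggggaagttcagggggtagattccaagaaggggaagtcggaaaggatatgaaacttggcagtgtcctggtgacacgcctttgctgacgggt
C1qb promoter: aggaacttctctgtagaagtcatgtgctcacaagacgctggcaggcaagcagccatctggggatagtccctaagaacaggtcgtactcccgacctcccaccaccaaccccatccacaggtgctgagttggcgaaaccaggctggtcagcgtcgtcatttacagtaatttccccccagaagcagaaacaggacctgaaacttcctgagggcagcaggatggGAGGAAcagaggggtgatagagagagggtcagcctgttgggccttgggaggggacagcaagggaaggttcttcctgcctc
Ccr2 promoter: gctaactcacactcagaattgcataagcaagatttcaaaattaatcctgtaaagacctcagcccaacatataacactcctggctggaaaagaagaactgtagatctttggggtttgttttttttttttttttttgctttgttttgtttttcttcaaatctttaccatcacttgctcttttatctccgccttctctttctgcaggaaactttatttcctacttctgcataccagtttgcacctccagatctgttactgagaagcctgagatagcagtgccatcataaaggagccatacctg
Lyz2 promoter: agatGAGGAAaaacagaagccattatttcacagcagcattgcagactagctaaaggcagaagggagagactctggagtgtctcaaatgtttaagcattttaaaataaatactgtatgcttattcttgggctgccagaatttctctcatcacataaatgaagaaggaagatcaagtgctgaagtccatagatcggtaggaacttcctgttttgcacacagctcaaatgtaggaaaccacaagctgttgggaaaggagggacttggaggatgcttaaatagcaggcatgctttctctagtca
The core was found in 7 of the 9 member promoters on either strand, and in 27.1% of the 25224 promoters of the same length. The promoters of C1qa and Ccr2 held no match. Adgre1, Itgam and Mrc1 held 3 matches each, and Cd68, C1qb, Lyz2 and Csf1r held 1 each. The C/EBP core TTGCNNAA was found for Cd68 and Ccr2 against 10.4% of all promoters, and the AP-1 core TGANTCA for Cd68 against 6.41%. No match overlapped another, each motif was searched on both strands, and a match is a description of letters only.

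Levels of different genes were compared as TPM, counts divided by transcript length and scaled to the same sum in every library, over all 16 libraries. C1qa at 13.6 ± 3.32 TPM (SD, n = 16) and Csf1r at 13.5 ± 2.2 TPM stood highest and differed by less than their spread. Lyz2 followed at 7.23 ± 2.22 TPM and C1qb at 5.22 ± 0.877 TPM, which differed by less than the SD of Lyz2. The group means of Lyz2 in ND_C, ND_B12, D_C and D_B12 were 8.73, 5.82, 8.78 and 5.57 TPM. Those of C1qb were 6.16, 5.11, 5.14 and 4.45 TPM, lower in each group. Cd68 at 2.72 ± 0.475 TPM and Ccr2 at 2.51 ± 0.814 TPM did not differ beyond their spread, and Ccr2 and Adgre1 at 1.93 ± 0.382 TPM lay closer than the SD of Ccr2. Mrc1 had 1.28 ± 0.222 TPM. Itgam was the lowest, at 0.293 ± 0.0582 TPM, and rested on 48 to 97 counts per library where Csf1r rested on 2032 to 4097. These SDs run over libraries of all groups, and differences between genes within a library were not tested. The order is that of RNA levels in whole kidney, in which all 9 genes were present in every library.

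Diabetes was examined first as the average over untreated and B12-treated mice, D_C and D_B12 against ND_C and ND_B12. A gene was called where edgeR's quasi-likelihood test gave a Benjamini-Hochberg adjusted p-value below 0.05 over all genes tested. C1qa and Ccr2 fell, and the other 7 members did not pass the test, so 2 of 9 were called, both lower. Of all genes tested, 3.02% were called in this comparison and 2.16% were called lower. At an unadjusted p-value below 0.05, 5 of 9 members were lower, beside 10.5% of all genes. All 9 log2 fold changes were below 0, with a median of −0.30, against 48.3% of genes below 0 and a median of 0.007 over all genes. Without D_C 1 and ND_B12 4, 5 of 9 members were called lower, namely C1qa, Ccr2, Csf1r, C1qb and Cd68, beside 5.34% of all genes called lower in that fit. In the 14 libraries that remained, the diabetic values lay below all non-diabetic ones for 3 of 9 members, Cd68, C1qa and Ccr2, as for 1.53% of all genes. With the library date added to the fit no gene of the 25408 was called, and the edgeR adjusted p-values were 0.633 for C1qa and 0.44 for Ccr2.

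**Figure D1:**
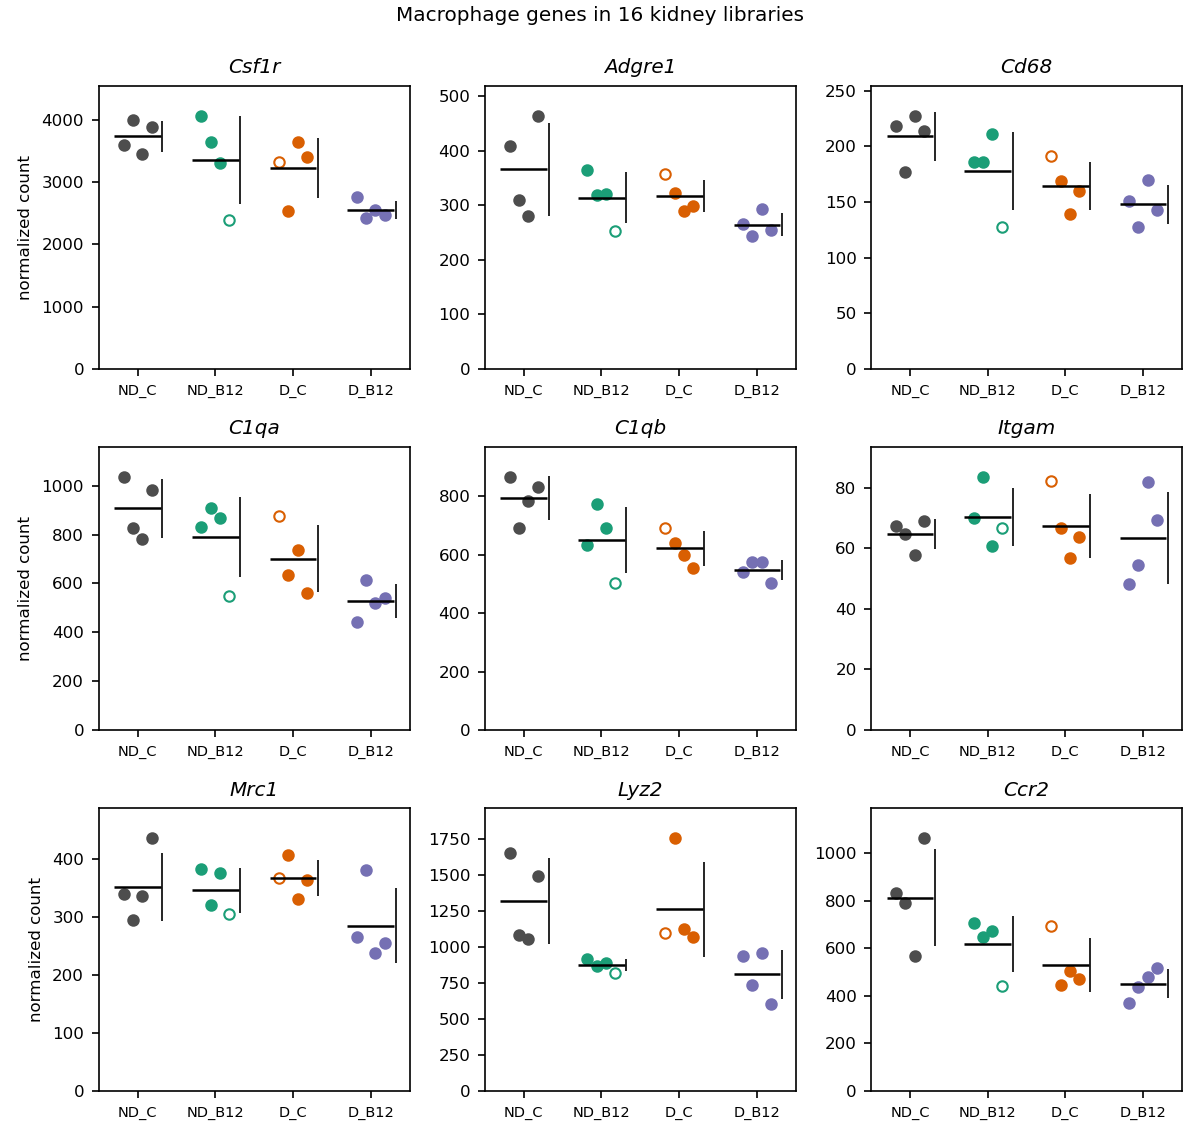
Normalized counts (counts divided by the size factor of the library) of the 9 genes (y axis, linear, from 0) in each of the 16 libraries, by labelled group (x axis). Points are libraries, the horizontal line is the group mean and the vertical line beside it 1 SD each way (n = 4); open points are D_C 1 and ND_B12 4. For C1qa the 4 D_B12 points lie between 444 and 613 and the 4 ND_C points between 780 and 1034.

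C1qa and C1qb encode chains of C1q, the recognition molecule of the classical complement pathway, which binds immune complexes and dying cells. C1qa had 1034, 828, 780 and 984 normalized counts, that is, counts divided by the size factor of the library, in the ND_C libraries, 832, 909, 868 and 548 in ND_B12, 875, 633, 736 and 562 in D_C, and 444, 613, 520 and 542 in D_B12. ND_B12 4, at 548, lay among the diabetic libraries, and D_C 1, at 875, among the non-diabetic ones. The log2 fold change was −0.47 with an SE of 0.12 (edgeR adjusted p = 0.0382), and without those 2 libraries it was −0.60 with an SE of 0.09 (edgeR adjusted p = 0.00114). In untreated mice alone, C1qa had 701 ± 136 normalized counts in D_C and 907 ± 121 in ND_C (SD over 4 libraries each), which did not pass the test (edgeR log2 fold change −0.37, adjusted p = 0.234). In B12-treated mice it had 530 ± 69.5 in D_B12 and 789 ± 164 in ND_B12 (SD over 4 libraries each), which did not pass either (edgeR log2 fold change −0.58, adjusted p = 0.0941).

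C1qb gave a smaller difference in the same direction. Its normalized counts were 864, 690, 784 and 831 in ND_C, 633, 772, 690 and 503 in ND_B12, 692, 640, 597 and 555 in D_C, and 540, 575, 576 and 504 in D_B12. ND_B12 4 had the lowest value of all 16 libraries. On average over treatments the log2 fold change for diabetes was −0.30 with an SE of 0.083 (edgeR adjusted p = 0.0627), and it passed the test without D_C 1 and ND_B12 4, at −0.38 with an SE of 0.071 (edgeR adjusted p = 0.00458). The third chain, C1qc, which was no member but belongs to the list of C1 genes, was called lower as well, at −0.41 with an SE of 0.097 (edgeR adjusted p = 0.0337). Its call stayed in 6 of 16 fits that left out 1 library, those without D_C 1, ND_B12 4, ND_B12 1, ND_C 3, D_B12 2 or D_B12 3. Of the other genes of that list, which encode the serine proteases and the inhibitor of C1, the 2 most abundant did not pass: C1s1 had a log2 fold change of −0.03 (edgeR adjusted p = 0.898) and Serping1 of 0.10 (edgeR adjusted p = 0.637).

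Ccr2, the receptor for the monocyte chemokine Ccl2, had the steepest difference. Its normalized counts were 832, 789, 567 and 1062 in ND_C, 706, 647, 673 and 443 in ND_B12, 694, 447, 505 and 471 in D_C, and 372, 437, 479 and 517 in D_B12. As for C1qa, ND_B12 4 lay within the range of the diabetic libraries and D_C 1 within that of the non-diabetic ones. Diabetes gave an average log2 fold change of −0.54 with an SE of 0.13 (edgeR adjusted p = 0.0425), and −0.68 with an SE of 0.12 without those 2 libraries (edgeR adjusted p = 0.00264). Untreated mice gave −0.62 (edgeR adjusted p = 0.0949) and B12-treated mice −0.45 (edgeR adjusted p = 0.238), neither past the threshold. The calls of C1qa and Ccr2 rest on all 16 libraries: leaving out 1 library at a time, the edgeR adjusted p-value of C1qa ran from 0.00803 without ND_B12 4 to 0.0851 without D_B12 1 and stayed below 0.05 in 3 of 16 cases, those without ND_B12 4, D_C 1 or D_B12 2. That of Ccr2 ran from 0.0132 without D_C 1 to 0.0917 without D_B12 1 and stayed below 0.05 in 4 of 16, those without D_C 1, ND_B12 4, ND_C 3 or D_B12 4.

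With the counts of all libraries added up, Ccr2 was the only 1 of the 9 members with several annotated transcripts above 5% of the gene's counts, and it had 4. Ccr2-203, with 2 exons, held 79.1% of the counts over all libraries, Ccr2-202, with a single exon, 9.24%, Ccr2-204 6.5% and Ccr2-201 5.19%. In the other members a single transcript held between 96.4% (Cd68-201) and 100% (C1qa-201, C1qb-201 and Lyz2-201) of the counts. In single libraries the share of Cd68-202 reached 19.5% and that of Itgam-202 13.3%. Ccr2-202 took 14.2, 18.6, 18 and 12.2% of the Ccr2 counts in ND_C, 17.8, 5.37, 6.84 and 3.28% in ND_B12, 0.855, 4.41, 1.41 and 2.74% in D_C, and 8.36, 5.81, 5.57 and 16.4% in D_B12. The D_C libraries lay below all ND_C libraries, as for 2% of 25619 transcripts that hold at least 5% of the counts of a gene with several such transcripts, with means of 15.8 ± 3.07% for ND_C and 2.35 ± 1.58% for D_C (SD over 4 libraries each). The libraries labelled B12 lay between 3.28 and 17.8%, and ND_B12 1 and D_B12 4 lay with ND_C. The split was estimated from short reads by the authors' assembler and was chosen for description after its values were seen, so no test is given.

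**Figure D2:**
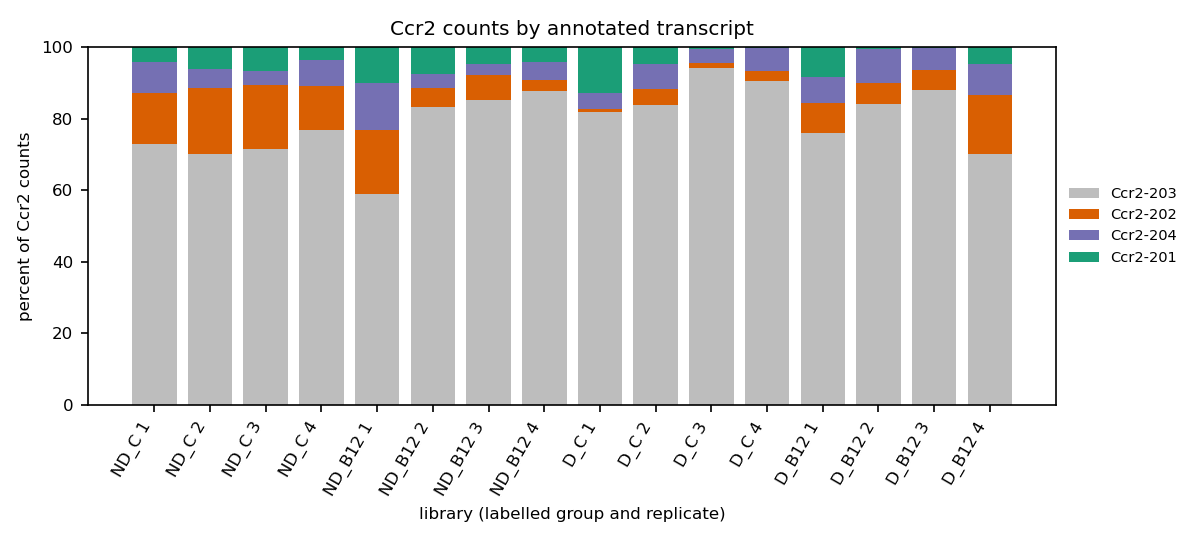
Share of the Ccr2 counts (y axis, percent) assigned to each annotated transcript in each of the 16 libraries (x axis, labelled group and replicate). Ccr2-202 lies between 12.2 and 18.6% in the 4 ND_C bars and between 0.855 and 4.41% in the 4 D_C bars.

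Csf1r encodes the receptor for the growth factors Csf1 and Il34 and lies on chromosome 18 from 61229714 to 61266535. It had 3604, 3992, 3459 and 3888 normalized counts in ND_C, 4058, 3652, 3315 and 2396 in ND_B12, 3332, 2530, 3641 and 3408 in D_C, and 2755, 2433, 2558 and 2468 in D_B12. The 4 D_B12 libraries and ND_B12 4 and D_C 2 stood apart below all the others. The average log2 fold change for diabetes was −0.30 with an SE of 0.093 (edgeR adjusted p = 0.085), and −0.38 with an SE of 0.075 without D_C 1 and ND_B12 4 (edgeR adjusted p = 0.0069). Csf1r shares 1461 exon bases with Hmgxb3 on the opposite strand. The methods have strand assigned from intron motifs at alignment, with no mention of a stranded library, so reads of the 2 genes in the shared bases may not be told apart. Hmgxb3 itself ranged from 2775 to 3120 normalized counts.

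Of the ligands of this receptor, Il34 was called and Csf1 was not, and the difference between them was not tested. Il34 fell with diabetes, from 1570 ± 353 normalized counts in ND_C and 1267 ± 568 in ND_B12 to 757 ± 363 in D_C and 595 ± 189 in D_B12 (SD over 4 libraries each). Its average log2 fold change was −1.07 with an SE of 0.26 (edgeR adjusted p = 0.037), and it was called in 4 of 16 fits that left out 1 library, those without ND_B12 4, D_C 1, D_B12 4 or ND_C 4. Csf1 had 703 ± 160 in ND_C and 688 ± 112 in D_C (SD over 4 libraries each), and its average log2 fold change of −0.02 did not pass the test (edgeR adjusted p = 0.949). In the kidney, Il34 is made mainly by tubular epithelium.

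Adgre1, which encodes the adhesion receptor that the F4/80 antibody binds, lies at chr17:57665573-57790527. Its normalized counts were 409, 310, 281 and 463 in ND_C, 365, 318, 320 and 253 in ND_B12, 357, 322, 290 and 299 in D_C, and 266, 244, 294 and 255 in D_B12. ND_C, ND_B12 and D_C overlapped, and ND_C alone spanned from 281 to 463. In D_B12, the values 266, 244 and 255 lay below every ND_C and D_C value, while 294 lay within the ranges of both. ND_B12 4, at 253, lay among the D_B12 values. The average log2 fold change for diabetes was −0.23, with a 95% interval from −0.45 to 0.00 (edgeR adjusted p = 0.259).

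Mrc1, the mannose receptor of tissue macrophages and of some endothelial cells, lies at chr2:14234151-14336926. It had 339, 295, 336 and 435 normalized counts in ND_C, 382, 321, 376 and 305 in ND_B12, 366, 407, 331 and 363 in D_C, and 266, 381, 238 and 254 in D_B12. ND_C, ND_B12 and D_C overlapped, 3 of the D_B12 libraries lay below all of them, and in D_B12 the second library, at 381, lay with the others. For diabetes the average log2 fold change was −0.11, with a 95% interval from −0.34 to 0.12 (edgeR adjusted p = 0.625).

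Itgam encodes an integrin chain of monocytes, macrophages and neutrophils and lies at chr7:127661808-127717753. Its normalized counts were 67.2, 64.6, 57.8 and 69.1 in ND_C, 69.9, 83.4, 60.9 and 66.7 in ND_B12, 82.2, 66.7, 56.9 and 63.6 in D_C, and 48.1, 54.4, 81.8 and 69.2 in D_B12. The 4 groups overlapped, and D_B12 alone held the lowest value and nearly the highest. Diabetes gave an average log2 fold change of −0.05, with a 95% interval from −0.33 to 0.23 (edgeR adjusted p = 0.889). It shares 3450 exon bases on the same strand with the gene model Gm49368, which had 46.6 to 144 normalized counts, so the division of reads between them is uncertain.

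Cd68 encodes a lysosomal membrane protein of macrophages and lies at chr11:69555037-69557067. It had 218, 177, 227 and 214 normalized counts in ND_C, 186, 186, 211 and 128 in ND_B12, 191, 169, 139 and 160 in D_C, and 151, 128, 170 and 143 in D_B12. The 4 D_B12 values lay below the lowest ND_C value, and ND_B12 4, at 128, was level with the lowest of them. The average log2 fold change for diabetes was −0.30 with an SE of 0.11 (edgeR adjusted p = 0.144), and −0.40 with an SE of 0.097 without D_C 1 and ND_B12 4 (edgeR adjusted p = 0.0173).

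**Figure D3:**
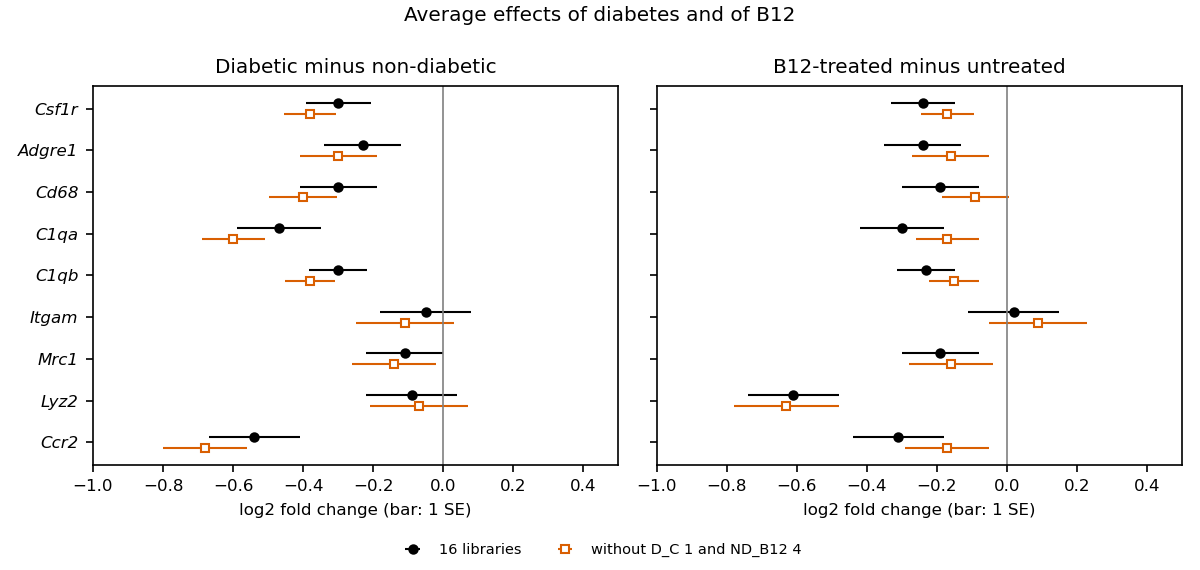
Average log2 fold changes (x axis) of the 9 genes for diabetes (left) and for B12 as labelled (right), with bars of 1 SE; black circles use 16 libraries and open squares 14, without D_C 1 and ND_B12 4. C1qa and Ccr2 lie at −0.47 and −0.54 for diabetes with all libraries, and Lyz2 lies at −0.61 for B12.

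Lyz2 encodes the lysozyme of macrophages and neutrophils, and its pattern followed the B12 label. It had 1652, 1080, 1057 and 1496 normalized counts in ND_C and 1094, 1754, 1127 and 1069 in D_C, against 915, 871, 887 and 817 in ND_B12 and 938, 736, 961 and 605 in D_B12. Every one of the 8 libraries labelled B12, up to 961, lay below every one of the 8 labelled untreated, down to 1057. Of 25408 genes, 2 were lower in all 8 without overlap, 0.00787%, and the other was Hopx, a homeodomain gene named after its values were seen because it was the only other one, with at most 245 normalized counts under B12 and at least 248 without. The tabulated group means place D_C 2, D_C 3, D_C 4 and ND_B12 4 under B12 and all D_B12 libraries outside it, so this separation is one by label. The average log2 fold change of Lyz2 for B12 was −0.61 with an SE of 0.13 and an unadjusted p-value of 0.000232, but it did not pass the adjustment over all genes (edgeR adjusted p = 0.841), and it was called by DESeq2 (adjusted p = 0.0186). Without D_C 1 and ND_B12 4 it was −0.63 with an SE of 0.15 (edgeR adjusted p = 0.647), and with the library date in the fit it was −0.40, with an unadjusted p-value of 0.0594 (edgeR adjusted p = 0.623). Neutrophils also express Lyz2. Of 8 neutrophil genes 5 had enough counts to be tested, and for B12 on average none was called and all 5 log2 fold changes were below 0 (median −0.43). The 8 genes summed to 1.26 to 1.99 CPM (counts scaled to library size) in the libraries labelled B12 and 1.22 to 4.5 CPM in the untreated ones, highest in D_C 2, where Lyz2 was highest as well. S100a8, a defining neutrophil gene, was at 0 in some libraries of ND_C, D_C and D_B12, and the part of these cells in the Lyz2 values was not tested. For diabetes the average log2 fold change of Lyz2 was −0.09, with a 95% interval from −0.36 to 0.19 (edgeR adjusted p = 0.77). Lyz2 has a near-identical neighbour, Lyz1, between which short reads can be split. For Lyz1, ND_C spanned 48.7 to 74.8 normalized counts, ND_B12 39.3 to 49.7, D_C 45.5 to 64.8 and D_B12 24.3 to 60.2. Lyz2 also shares 534 exon bases with the opposite-strand transcript Gm67237.

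For B12, no member was called in non-diabetic kidneys, in diabetic kidneys or on average, where edgeR called 0 of 25408 genes each time, 0%. In non-diabetic kidneys, 2 of 9 members had an unadjusted p-value below 0.05, both lower, beside 3.95% of all genes lower at that level, and DESeq2 called 6 genes and no member. These were Lyz2 (log2 fold change −0.59) and C1qb (−0.28). In diabetic kidneys, 4 of 9 were lower at an unadjusted p-value below 0.05, beside 7.21% of all genes lower, and DESeq2 called 681 genes, 2.68%, and 1 member, Lyz2. Lyz2 had a log2 fold change of −0.64 (edgeR adjusted p = 0.153), C1qa of −0.40 (edgeR adjusted p = 0.289), Mrc1 of −0.36 (edgeR adjusted p = 0.308) and Csf1r of −0.34 (edgeR adjusted p = 0.267). All 9 members had log2 fold changes below 0 in diabetic kidneys, with a median of −0.26, against 50.1% of all genes below 0. Without D_C 1 and ND_B12 4, 8 of 9 members were below 0. Lyz2 was without overlap between D_C and D_B12, as were 3.18% of all genes in that direction, and between ND_C and ND_B12, as were 2.16%. On average over both genotypes, 6 of 9 members were lower at an unadjusted p-value below 0.05, beside 3.19% of all genes lower, and their edgeR adjusted p-values ran from 0.841 to 0.946. These were Lyz2, C1qa, Ccr2, Csf1r, Adgre1 and C1qb, while Itgam had a log2 fold change of 0.02. The count was 2 of 9 without D_C 1 and ND_B12 4, Lyz2 and Csf1r, and with the library date in the fit it was 0 of 9.

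The diabetic effect was also taken within each treatment as labelled. Leaving out D_C 1 and ND_B12 4 does not settle which treatment the other libraries had. In untreated mice edgeR called 0 of 9 members, beside 1.66% of all genes, and 4 of 9 were lower at an unadjusted p-value below 0.05, beside 9.28% of all genes. These were Ccr2, C1qb, C1qa and Cd68. DESeq2 called 1 of 9 members, Ccr2 (adjusted p = 0.0243), beside 6.31% of all genes. In B12-treated mice edgeR called 0 of 9, beside 0.823% of all genes, and 3 of 9 were lower at an unadjusted p-value below 0.05, beside 9.2%. These were C1qa, Csf1r and Ccr2. DESeq2 called 1 of 9 members, C1qa (adjusted p = 0.0221), beside 4.51% of all genes. Whether the diabetic effect differed between the treatments was tested as an interaction. No member passed by edgeR (0 of 25408 genes, 0%) or by DESeq2 (923 genes, 3.63%), and 0 of 9 had an unadjusted p-value below 0.05, beside 16.1% of all genes. The largest interaction among members, −0.34 for Mrc1, had a 95% interval from −0.80 to 0.11.

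**Figure D4:**
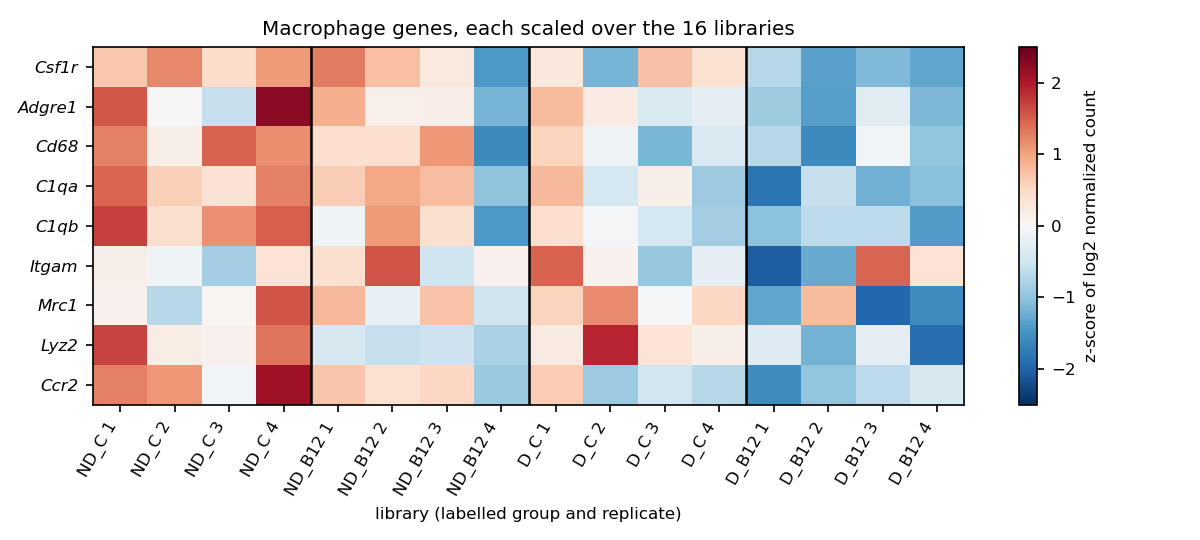
Log2 normalized counts of the 9 genes (rows), each scaled to mean 0 and SD 1 over the 16 libraries (columns, labelled group and replicate); red is above and blue below the gene's mean. ND_B12 4 and the D_B12 libraries are mostly blue and ND_C 1 and ND_C 4 mostly red, with Itgam, Mrc1 and Lyz2 departing from the other genes.

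The members varied together to different degrees. Over the 36 pairs of members, Pearson's r across the 16 libraries ran from −0.05 to 0.89 with a median of 0.55, and after removing the group means from −0.23 to 0.80 with a median of 0.38. With the mean of the other 8, r was 0.90 for Adgre1, 0.89 for C1qa, 0.88 for C1qb, 0.86 for Ccr2, 0.79 for Cd68 and 0.71 for Csf1r. It was lower for Lyz2 (0.56), Mrc1 (0.49) and Itgam (0.28). The mean scaled level of the 9 genes was highest in ND_C 4, at 1.42, and lowest in D_B12 1, at −1.14. It was −0.95 in ND_B12 4 and 0.64 in D_C 1. Among 16063 other genes with a mean of at least 1 CPM, the 5 whose pattern was most like the members' mean were Ctss (r = 0.93), Coro1a (0.93), Slfn2 (0.93), Lcp1 (0.92) and Plek (0.92), and 77 genes exceeded 0.8. These correlations are descriptions over 16 libraries that share depth, date and group.

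Genes that macrophages share with other myeloid cells were also examined for diabetes on average. Of 11 myeloid signalling genes, 6 were called lower and 11 had log2 fold changes below 0, with a median of −0.52, beside 2.16% called lower over all genes. Ctss, a lysosomal protease that trims antigens, had a log2 fold change of −0.65 (edgeR adjusted p = 0.0178) and Tyrobp, the adaptor of many activating receptors, of −0.53 (edgeR adjusted p = 0.0174). Laptm5, a lysosomal protein of blood cells, had −0.52 (edgeR adjusted p = 0.0202), Cybb, the catalytic subunit of the phagocyte oxidase, −0.54 (edgeR adjusted p = 0.0263), and Coro1a, an actin regulator of leukocytes, −0.50 (edgeR adjusted p = 0.0253). Ptprc, present on all leukocytes, had −0.34 (edgeR adjusted p = 0.112). Without D_C 1 and ND_B12 4, 8 of 11 were called lower, beside 5.34% of all genes. Leaving out 1 library at a time, 2 (without ND_B12 3) to 8 (without D_C 1) were called lower, with 3 each without ND_B12 1, ND_B12 2 or D_B12 1.

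Among resident macrophage genes, fewer log2 fold changes for diabetes were below 0 than above it. Of 13 listed, 11 were tested, 4 had log2 fold changes below 0 and the median was 0.05. Only 1 was called, higher, beside 0.862% of all genes called higher. This was Stab1, a scavenger receptor of macrophages and of some endothelial cells, at 0.42 with an SE of 0.10 (edgeR adjusted p = 0.0364), with 1954 ± 336 normalized counts in ND_C and 2994 ± 438 in D_C (SD over 4 libraries each). Without D_C 1 and ND_B12 4, 3 of the 11 were called higher, beside 1206 of 24831 genes, and 2 lower, beside 5.34% of all genes. Mertk, a receptor for the uptake of dying cells, had a log2 fold change of −0.01 (edgeR adjusted p = 0.937). Endothelial markers, from cells that can also express Stab1 and Mrc1, had a summed level of 234 to 262 CPM for ND_C, against 269 to 313 CPM for ND_B12, 288 to 337 CPM for D_C and 258 to 306 CPM for D_B12, and their part in these values was not tested.

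Of the lists for activation states, the inflammatory and the alternative each held 1 gene called lower, beside 2.16% of all genes. Of 9 inflammatory macrophage genes tested, Cd86, a co-stimulatory ligand for T cells, was called lower at −0.67 with an SE of 0.12 (edgeR adjusted p = 0.0121), and the median was −0.05. Nos2, the inducible nitric oxide synthase, had 0.15 (edgeR adjusted p = 0.729). Of 6 alternative macrophage genes tested, Clec10a, a lectin, was called lower at −0.92 (edgeR adjusted p = 0.0348; 5 of 16 fits with 1 library left out), the median was 0.08, and Mgl2, a related lectin, had −0.38 (edgeR adjusted p = 0.0854). No macrophage transcription factor of 5 was called, with Maf at −0.08 and Cebpb at 0.30 on the log2 scale, and 4 of the 5 were below 0. Spi1, which encodes PU.1 and is named after its values were seen, had −0.40 (edgeR adjusted p = 0.116). Mean levels were 439 CPM for Maf, 24.5 CPM for Cebpb and 2.01 CPM for Spi1. The part of cells other than macrophages in these values was not tested. Of the 4 monocyte chemokines tested none was called, and Ccl2, the ligand of Ccr2, had 43.1 ± 26.3 normalized counts in ND_C and 31.1 ± 16.2 in D_C (SD over 4 libraries each). Of 10 lysosome genes, 1 was called lower, beside 2.16% of all genes, 8 had log2 fold changes below 0, and the median was −0.14. At an unadjusted edgeR p-value below 0.05, 5 of the 10 were lower, beside 10.5% of all genes. The most abundant of them, the membrane genes Lamp1 and Lamp2, were not called, with log2 fold changes of −0.09 and −0.08.

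Some markers of other leukocytes were called lower for diabetes on average, beside 2.16% of all genes, and their part in the member values was not tested. Of 7 dendritic cell genes, Cd209a (−0.95, edgeR adjusted p = 0.0178) and Itgax (−0.53, edgeR adjusted p = 0.0463) were called lower, and 6 of 7 log2 fold changes were below 0. The exception was Zbtb46, the most abundant of that list, at 0.12 (edgeR adjusted p = 0.206). Of 7 T cell genes, Cd3g was called lower at −1.18 (edgeR adjusted p = 0.0475), and all 7 were below 0. Of 6 B cell and plasma cell genes, Jchain, the joining chain of secreted antibodies, was called lower at −2.09 with an SE of 0.33 (edgeR adjusted p = 0.0116), from 1708 ± 1000 normalized counts in ND_C to 439 ± 220 in D_C (SD over 4 libraries each), and all 6 were below 0. None of 6 monocyte and 5 neutrophil genes tested was called, with Fn1 at 0.46 (edgeR adjusted p = 0.0701) and Csf3r at 0.14 (edgeR adjusted p = 0.826). Without D_C 1 and ND_B12 4, 3 dendritic cell, 2 T cell and 2 B cell and plasma cell genes were called lower, beside 5.34% of all genes. There 2 monocyte genes were called higher, Fn1 at 0.61 and Vcan at 1.79, while Ccr2 was lower. Over all genes, 1206 of 24831 were called higher. In that fit 2 endothelial genes, Cdh5 and Pecam1, were also called higher. Adipocyte genes, a sign of attached fat, summed to 27.4 to 201 CPM in ND_C and 36.3 to 254 in D_B12 with no call among 6. The kidney epithelium markers summed to 11000 to 14100 CPM over all libraries, with Slc34a1 of the proximal tubule lower in diabetes at −0.25 (edgeR adjusted p = 0.0178) and Aqp2 of the collecting duct higher at 1.14 (edgeR adjusted p = 0.0348). Leaving out 1 library at a time, the calls of Cd86, Cd209a, Jchain, Slc34a1, Ctss and Tyrobp stayed in 16 of 16 fits. Those of Stab1 and Aqp2 stayed in 4, without D_C 1, ND_B12 4, D_B12 4 or ND_C 1. The call of Cd3g stayed in 4, without D_C 1, ND_B12 4, D_B12 2 or ND_C 4, that of Itgax in 3, without D_C 1, ND_B12 4 or D_B12 3, and that of Clec10a in 5, without D_C 1, ND_B12 4, D_B12 2, D_B12 4 or ND_C 4.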

How the data were processed

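Whole-kidney RNA of 16 mice was sequenced as paired-end reads, which the authors aligned to GRCm39 with STAR and assembled with StringTie on a GENCODE annotation, per the methods and the submitters' processing notes. The deposited values are estimated counts per gene and per transcript, written as whole numbers by the authors, with totals of 65271308 to 91771136 per library. From these, genes with at least 100 counts in all (25408) were tested with edgeR 4.0.16 (R 4.3.3; TMM, glmQLFit and glmQLFTest, all libraries fitted together by labelled group, leaving 12 residual degrees of freedom, two-sided, Benjamini-Hochberg adjustment, called at an adjusted p-value below 0.05). Normalized counts were divided by median-of-ratios size factors. TPM came from the transcript counts and the lengths of a later GENCODE release on the same build, which held 148994 of 149194 transcripts and 99.84% of counts. Gene positions are from that release. The labels call the samples biological replicates. Scripts were tested on simulated counts, with 200 genes changed by a log2 fold change of 1 either way in the diabetic libraries. At an adjusted p-value below 0.05, 8.03% of edgeR calls and 24.9% of DESeq2 calls for diabetes on average were false.

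The members and gene lists were chosen with earlier results of these data known. Named outside the members are genes called in a comparison, at most 5 per list with the smallest p-values first, the 2 most abundant of each list, and the 5 most like the members. Alternatives were DESeq2 1.42.0, median-of-ratios factors in edgeR, a minimum of 1 count, the library date added to the fit, a replicate block, and leaving out libraries. The values of 1 listed gene are not reported here.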

Additional observations from a re-analysis of the deposited data

Results flagged for a closer look

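In 36 sets of values, the 9 members in each of the 4 groups, the highest or lowest library stood apart from the other 3 in 1 set by Dixon's criterion at the 95% level, and chance alone gives about 1 in 20. This was Lyz2 in D_C 2, with 1754 normalized counts where the other D_C libraries had 1069 to 1127. Lyz2 is also a neutrophil gene, and the listed neutrophil genes summed to 4.5 CPM in D_C 2, against 1.22 to 2.34 CPM in the other D_C libraries and at most 2.71 CPM in the rest, whose part in the value was not tested. Without that library the log2 fold change of Lyz2 was −0.43 for B12 in diabetic kidneys and −0.51 for B12 on average.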

How the results depend on the processing

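The 9 members kept the direction of their log2 fold change in every comparison under DESeq2, median-of-ratios factors, a minimum of 1 count and the replicate block. Members called for diabetes on average, 2 of 9, became 4 under DESeq2 (C1qa, Ccr2, C1qb and Csf1r), 5 without D_C 1 and ND_B12 4, and 0 with a minimum of 1 count, with the date in the fit or with the replicate block, under which the edgeR adjusted p-values were 0.0575 for C1qa and 0.0712 for Ccr2. With a minimum of 1 count they were 0.0607 and 0.0651, where 40826 genes were tested. In untreated kidneys 0 members became 1 under DESeq2 and 3 without D_C 1 and ND_B12 4. In B12-treated kidneys 0 became 1 and 2 by the same changes. For B12, 0 became 1 under DESeq2 in diabetic kidneys and 1 on average, each time Lyz2. The cause of these changes was not tested.

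Over all genes, diabetes in untreated kidneys gave 423 calls, against 1603 with DESeq2, 63 with a minimum of 1 count, 2 with the date, 269 with the replicate block and 2127 without D_C 1 and ND_B12 4. In B12-treated kidneys 209 became 1146, 35, 29, 25 and 695 in the same order, and on average 767 became 1832, 427, 0, 478 and 2531. B12 gave 0 calls, against 6 with DESeq2 in non-diabetic kidneys and 6 on average, and in diabetic kidneys 681 with DESeq2, 204 with the date and 216 without D_C 1 and ND_B12 4. The interaction gave 0, against 923 with DESeq2, 753 with the date, 147 with the replicate block and 87 without D_C 1 and ND_B12 4.

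Leaving out 1 library at a time, member calls ranged from 0 to 1 for diabetes in untreated kidneys, 0 to 2 in B12-treated kidneys (2 without ND_B12 4) and 0 to 5 on average (5 without ND_B12 4), and stayed at 0 for B12 and the interaction. Calls over all genes ranged from 0 to 1552, 0 to 441 and 235 to 1700 for diabetes, from 0 to 2, 0 to 69 and 0 to 0 for B12, and from 0 to 266 for the interaction.

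Values that changed sign were small or of genes not called. With the date in the fit, Itgam was −0.047 for diabetes in untreated kidneys and −0.081 for B12 on average, Lyz2 was 0.18, 0.39 and 0.28 for diabetes in untreated, B12-treated and all kidneys, Mrc1 was 0.011 and 0.11 for diabetes in B12-treated and all kidneys and 0.034 for B12 in non-diabetic kidneys, and the interaction was 0.015 for Adgre1 and 0.20 for Lyz2. Without D_C 1 and ND_B12 4, Itgam was −0.055 for diabetes in untreated kidneys and 0.029 for B12 in diabetic kidneys, and Mrc1 was 0.031 for B12 in non-diabetic kidneys. Leaving out 1 library, diabetes in untreated kidneys ranged from −0.065 to 0.13 for Itgam, −0.016 to 0.18 for Mrc1 and −0.27 to 0.05 for Lyz2. Lyz2 ranged from −0.20 to 0.0097 for diabetes in B12-treated kidneys, Mrc1 from −0.098 to 0.10 for B12 in non-diabetic kidneys, and Itgam from −0.24 to 0.042 for B12 in diabetic kidneys, −0.12 to 0.012 for diabetes on average and −0.057 to 0.079 for B12 on average. The interaction ranged from −0.18 to 0.066 for Adgre1, −0.048 to 0.18 for Cd68 and −0.15 to 0.18 for Lyz2.

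Replicate numbers showed no pairing of the libraries. Deviations of libraries with the same number had a median r of 0.00597, with −0.242 to 0.374 over 24 pairs. Over 72 pairs with different numbers the median was 0.00034, with −0.411 to 0.442. In all, 2 of 16 libraries correlated best with their own number. Why calls were lost under the block was not tested. Of the members, Itgam rested on the fewest counts, 48 to 97 per library.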
